A study of Mus musculus with 12 samples.

Results

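The 12 stomach samples of this microarray series fell into 7 arrays with high expression of stratified squamous epithelium genes, called forestomach-rich here, and 5 arrays in which the same genes were near background, called forestomach-poor. The samples came from 6 Car9-/- mice, made by targeted disruption of the gene for the pH-regulating enzyme carbonic anhydrase IX, and 6 wild-type mice. All mice were C57BL/6, each genotype held 3 males and 3 females, ages ran from 8 to 12 months, and each mouse gave 1 array. The labels name the tissue as stomach, and the methods name the body of the stomach. The forestomach-rich arrays were Car9-/- 2, 3, 4 and 5 and wild-type 1, 2 and 3, and the forestomach-poor arrays were Car9-/- 1 and 6 and wild-type 4, 5 and 6. The groups were defined from measured values, so differences between them are given as a description with no test.

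The mouse stomach has 2 linings that meet at the limiting ridge. The proximal forestomach carries a keratinized stratified squamous epithelium that continues from the oesophagus, whereas the corpus and antrum carry gastric glands with parietal, chief, pit, neck and endocrine cells. In the squamous lining, basal cells attached to the basement membrane express the keratin pair Krt5 and Krt14 under the control of the transcription factor Trp63. As the cells move up they switch to other keratins and lay down the cornified envelope, a protein shell cross-linked by transglutaminases under the cell membrane. Many genes for envelope proteins lie side by side in the epidermal differentiation complex. The same genes are used by oesophagus and skin, so their level alone does not say which squamous tissue was present.

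The split used 7 genes, Krt4, Krt5, Krt13, Krt14, Krt6a, Ivl and Sprr3. For each gene the log2 values of its brightest probe in the authors' normalized table were centred over the 12 arrays, and the mean over the 7 genes was the marker level of an array. This level was 0.69, 2.71, 2.44 and 1.68 in Car9-/- 2, 3, 4 and 5 and 1.05, 2.96 and 1.36 in wild-type 1, 2 and 3. It was -2.33 and -2.39 in Car9-/- 1 and 6 and -2.66, -2.74 and -2.78 in wild-type 4, 5 and 6. The threshold was -1, and no array lay between the lowest forestomach-rich level, 0.69 in Car9-/- 2, and the highest forestomach-poor level, -2.33 in Car9-/- 1.

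The split did not follow the labels detectably. It held 4 Car9-/- and 3 wild-type arrays on the forestomach-rich side, against 2 Car9-/- and 3 wild-type arrays on the forestomach-poor side (two-sided Fisher's exact test, p = 1). It held 4 males and 3 females on the rich side, against 2 males and 3 females on the poor side (two-sided Fisher's exact test, p = 1). Mean age was 10.6 ± 1.51 months on the rich side and 11.6 ± 0.89 months on the poor side (SD, n = 7 and n = 5, two-sided exact permutation test, p = 0.407). All 3 p-values were 1 after Benjamini-Hochberg adjustment. The marker level averaged 0.47 ± 2.30 in Car9-/- mice and -0.47 ± 2.56 in wild-type mice (SD, n = 6 each), and this difference was small beside the spread within each genotype (two-sided exact permutation test, p = 0.476). The poor wild-type arrays stood apart in brightness, with mean raw signals of 389 to 399 against 448 to 557 on the other 9 arrays. The number of detected probes lay between 18141 and 20276. Whether the arrays were processed in batches is not given in the sources used here, so a batch and the split cannot be told apart.

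**Figure D1:**
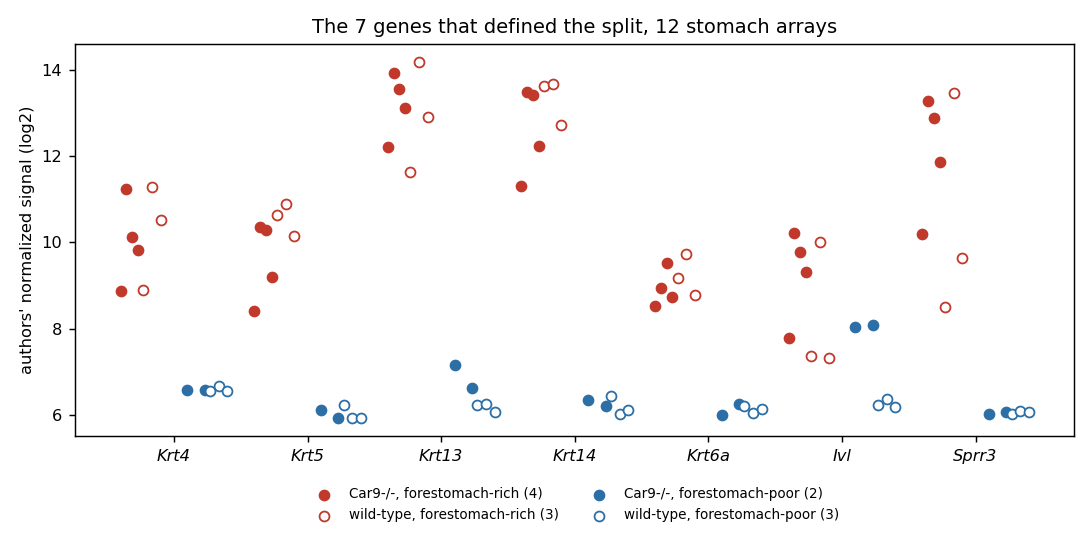
Authors' normalized log2 signal (vertical axis) of the 7 genes that defined the split (horizontal axis), 1 point per array, red for forestomach-rich and blue for forestomach-poor arrays, filled for Car9-/- and open for wild-type mice. The sets are apart for 6 of the 7 genes, and for Ivl the forestomach-poor Car9-/- arrays at 8.03 and 8.09 lie above wild-type 1 and 3 at 7.36 and 7.31.

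Krt14 and Krt13 had the widest separation of the 7 genes. On the authors' scale Krt14 ranged over 11.31, 13.42 and 13.67 (lowest, median and highest) on the rich arrays, against 6.34 and 6.21 in Car9-/- 1 and 6 and 6.43, 6.02 and 6.12 in wild-type 4, 5 and 6. Its partner Krt5 ranged over 8.41, 10.29 and 10.89 on the rich arrays, against 6.12 and 5.93 in the poor Car9-/- arrays and 6.23, 5.92 and 5.92 in the poor wild-type arrays. Neither gene was detected on any poor array. Krt13, a suprabasal keratin of mucosal squamous epithelia, ranged over 11.63, 13.11 and 14.19 on the rich arrays, against 7.15 and 6.61 in Car9-/- 1 and 6, the only poor arrays on which it was detected, and 6.22, 6.24 and 6.06 in wild-type 4, 5 and 6. Its partner Krt4 ranged over 8.88, 10.12 and 11.28 on the rich arrays, against 6.57 and 6.58 in the poor Car9-/- arrays and 6.55, 6.67 and 6.55 in the poor wild-type arrays. Krt6a, a keratin of activated squamous cells, varied least among the rich arrays, at 8.52, 8.95 and 9.74, against values of 5.99 to 6.26 on the poor arrays. Sprr3, a small proline-rich envelope protein, varied most, at 8.50, 11.86 and 13.47 on the rich arrays, against 6.02 and 6.07 in the poor Car9-/- arrays and 6.01, 6.08 and 6.07 in the poor wild-type arrays. Ivl encodes involucrin, an early scaffold of the cornified envelope, and its rich values of 7.31, 9.31 and 10.21 overlapped the poor values of 8.03 and 8.09 in Car9-/- 1 and 6. Its values in wild-type 4, 5 and 6 were 6.22, 6.36 and 6.19.

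Promoter sequences are printed for 4 neighbouring cornified envelope genes, since Lor and Sprr3 followed the split with no overlap while Ivl and Sprr1a did not. Each runs 5′ to 3′ on the strand of the gene and ends at the base before the RefSeq start (GRCm38.p6). Capitals mark TATAAA on the strand of the gene and the AP-1 motif TGANTCA, searched on both strands with N for any base.
Lor (chr3:92083143-92083392, minus strand): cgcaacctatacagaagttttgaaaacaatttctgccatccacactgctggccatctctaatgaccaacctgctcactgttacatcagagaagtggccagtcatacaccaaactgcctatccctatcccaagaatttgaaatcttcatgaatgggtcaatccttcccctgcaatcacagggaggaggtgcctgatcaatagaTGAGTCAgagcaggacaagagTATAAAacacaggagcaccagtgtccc
Sprr3 (chr3:92458721-92458970, minus strand): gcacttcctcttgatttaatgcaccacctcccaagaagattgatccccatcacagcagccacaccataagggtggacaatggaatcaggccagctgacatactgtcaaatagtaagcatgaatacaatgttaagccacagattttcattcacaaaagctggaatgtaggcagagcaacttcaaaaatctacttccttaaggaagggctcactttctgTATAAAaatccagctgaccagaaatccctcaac
Ivl (chr3:92573736-92573985, minus strand): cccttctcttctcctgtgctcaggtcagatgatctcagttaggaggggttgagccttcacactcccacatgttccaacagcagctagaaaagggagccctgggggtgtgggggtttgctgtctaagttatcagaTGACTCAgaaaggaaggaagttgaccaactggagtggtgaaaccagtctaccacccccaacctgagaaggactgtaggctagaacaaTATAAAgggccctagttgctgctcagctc
Sprr1a (chr3:92485882-92486131, minus strand): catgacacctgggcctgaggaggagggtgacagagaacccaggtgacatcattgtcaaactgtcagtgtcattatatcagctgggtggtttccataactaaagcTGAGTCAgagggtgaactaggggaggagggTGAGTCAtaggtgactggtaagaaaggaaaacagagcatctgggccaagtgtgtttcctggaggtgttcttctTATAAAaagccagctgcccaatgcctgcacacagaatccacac

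All 4 windows held 1 TATAAA, starting 27, 33, 29 and 43 bases before the start in Lor, Sprr3, Ivl and Sprr1a. TGANTCA occurred once in Lor and Ivl, 2 times in Sprr1a and not in the Sprr3 window. Of the 153 named genes that were higher on the rich arrays described in the next paragraphs, 107 had a promoter in the RefSeq table. In the 250 bases before the start, TATAAA was present in 18.7% of these 107, against 5.31% of 9446 promoters of tested genes and 8.12% of all 27025. TGANTCA was present in 20.6% of the 107, against 5.07% of the promoters of tested genes and 6.87% of all. The higher genes include families of close copies, so their matches may not be independent. A match is a string of letters, and binding at these positions was not measured.

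Across the array, far more probes met the rule for higher than the rule for lower. A probe was called higher on the forestomach-rich arrays when every rich array lay above every poor array and the genotype-adjusted log2 difference was at least 1, and lower by the mirror of this rule. Among 20751 tested probes, which 3 or more arrays had detected at p under 0.01, 187 were higher (0.901%) and 1 was lower (0.00482%). Without the limit on size, 321 probes lay wholly above and 83 wholly below, and with overlap allowed, 234 probes had a difference of at least 1 and 81 a difference of at most -1. Leaving out 1 array at a time gave 1 to 10 lower probes, 10 of them without Car9-/- 1. The median difference of all tested probes was -0.02. The 187 probes carried 153 different gene names, and 14 probes had no name. Of the 153 genes, 84 were in the squamous epithelium lists described below or among the 7 genes that defined the split, of which all but Ivl were higher by construction of the split. As many as 110 of the 187 probes were detected on none of the 5 poor arrays, and 168 were detected on all 7 rich arrays. The difference was at least 1 for 180 of the 187 probes within the Car9-/- mice alone and for 183 within the wild-type mice alone. These counts were largely set by the rule, under which every rich array lay above every poor array of either genotype. In these bulk samples, fewer squamous cells and less squamous RNA per cell cannot be told apart. The 187 probes made up 0.438% to 2.52% of the summed signal of a rich array (median 1.00%), against 0.119% to 0.128% on the poor arrays.

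**Figure D2:**
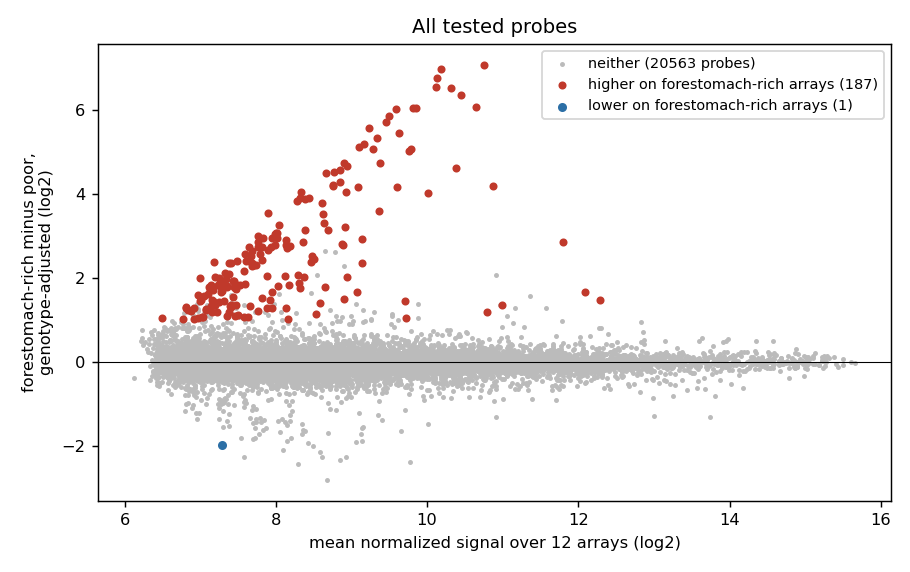
Genotype-adjusted log2 difference, forestomach-rich minus forestomach-poor (vertical axis), against the mean normalized log2 signal over the 12 arrays (horizontal axis) for the 20751 tested probes. The 187 higher probes, in red, reach 7.08, and the 1 lower probe, in blue, lies at -2.0.

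The 12 named genes with the largest differences were Lor, Krt14, Lce3f, Krt13, Rptn, Lgals7, Krtdap, Asprv1, Kprp, Lce1b, Lce1c and Gm94. All values from here on are log2 signals quantile-normalized from the deposited intensities. Lor encodes loricrin, the main protein of the cornified envelope, and ranged over 12.56, 14.29 and 14.81 on the rich arrays, against 6.68 and 6.51 in Car9-/- 1 and 6 and 6.58, 6.54 and 6.63 in wild-type 4, 5 and 6. Its genotype-adjusted difference was 7.08 ± 0.40 (SE), a 136-fold change, with detection on 2 poor arrays. Lce3f, a late cornified envelope gene, ranged over 11.07, 12.63 and 13.88 on the rich arrays, against 6.49 and 6.34 in the poor Car9-/- arrays and 6.21, 6.21 and 6.27 in the poor wild-type arrays. It was not detected on any poor array. For such genes only a bound can be given, in which each poor array counts at the lowest signal of its detected probes if the gene lay below that. A bound is the plain difference of the group means, not adjusted for genotype, so list medians with bounds mix adjusted and unadjusted values. Lce3f was at least 74.5-fold higher on the rich arrays, Krt14 at least 78.0-fold and Sprr3 at least 27.1-fold.

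Lgals7, which encodes a galectin of stratified epithelia, was detected on all 12 arrays. It ranged over 10.86, 13.43 and 14.23 on the rich arrays, against 7.74 and 7.37 in Car9-/- 1 and 6 and 6.94, 6.84 and 6.87 in wild-type 4, 5 and 6, a difference of 6.06 ± 0.50 (SE). Rptn, for the envelope precursor repetin, differed by 6.37 ± 0.41 (SE) and was detected on 4 poor arrays. The other undetected genes were at least 53.4-fold (Krtdap), 52.1-fold (Asprv1, a protease that processes filaggrin in skin), 43.2-fold (Kprp), 39.0-fold (Lce1b), 36.2-fold (Lce1c) and 31.3-fold (Gm94) higher on the rich arrays.

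Some of the higher genes lay together on the chromosomes. On the GRCm38.p6 assembly 152 of the 153 genes could be placed, and 44 of them fell into 4 runs of at least 4 genes with gaps of at most 1 Mb. The longest was on chromosome 3, where 25 of the 68 tested genes between Lor and Anxa9 were higher, the Sprr and Lce genes of the epidermal differentiation complex among them. On chromosome 7 the run held 7 of 13 tested genes, which were Vsig10l and the kallikrein proteases Klk13, Klk11, Klk10, Klk8, Klk7 and Klk5. The type II keratins Krt6b, Krt6a, Krt5, Krt1, Krt4 and Krt78 on chromosome 15 made up 6 of 8 tested genes, and the type I keratins Krt10, Krt13, Krt15, Krt14, Krt16 and Krt17 on chromosome 11 made up 6 of 13. The runs include genes that defined the split, which are Sprr3 on chromosome 3, Krt6a, Krt5 and Krt4 on chromosome 15 and Krt13 and Krt14 on chromosome 11. Genes of these families have close copies, so a probe for 1 member may also bind others. Each run was bounded by genes called higher, so its share of tested genes was raised by construction. Among all tested probes 0.901% were higher, and an expected number of runs was not worked out.

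The squamous lists held 142 tested genes in 8 groups, of which 78 (54.9%) were higher and 0 lower, beside 0.901% and 0.00482% of all tested probes. Their median difference was 1.42, beside -0.02 for all probes. Many of these genes, 26 of 37 in the cornified envelope list, were detected on no poor array. They passed the detection filter only through the rich arrays, where they were high, and genes detected on too few arrays dropped out. The share of 54.9% was thus raised by the filter. In the list of cornified envelope and epidermal differentiation complex genes, 27 of 37 were higher, with a median difference of 3.08, or 2.68 when genes undetected on every poor array were set at their bound. The 10 others had positive differences of 0.14 to 1.38, with Sprr1a and Sprr2e at 1.38. Outside the 7 marker genes, 7 of 10 further keratins were higher, with a median difference of 2.37 (1.89 with bounds). Krt10, a keratin of differentiated cells in keratinized epithelium, ranged over 9.76, 13.44 and 14.64 on the rich arrays, against 7.31 and 7.64 in Car9-/- 1 and 6 and 7.75, 7.79 and 7.55 in wild-type 4, 5 and 6. Its partner Krt1 was undetected on the poor arrays and at least 15.2-fold higher, while Krt17 differed by 3.58 and Krt78 by 3.21.

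Enzymes that build and seal the envelope, Asprv1 among them, had 10 of 16 higher and a median difference of 1.64 (1.47 with bounds). Casp14, a caspase of keratinocyte differentiation, ranged over 8.76, 10.64 and 11.97 on the rich arrays, against 6.09 to 6.24 on the poor arrays, where it was not detected, and was at least 17.2-fold higher. Elovl4, which elongates very long fatty acids, differed by 3.31, and Tgm1, the transglutaminase that cross-links the envelope, by 2.75. Tgm1 ranged over 7.95, 9.05 and 10.30 on the rich arrays, against 6.64 and 6.55 in the poor Car9-/- arrays and 6.61, 6.53 and 6.61 in the poor wild-type arrays. The genes Abca12, Pnpla1 and Acer1, for the handling of barrier lipids, lay at -0.02, -0.03 and 0.02.

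Among proteases and their inhibitors, 12 of 22 were higher, with a median difference of 1.5 (1.00 with bounds). The list was led by the protease inhibitor Serpinb12, the cystatin Stfa2 and Klk7, a protease that acts in shedding of cornified cells, which were undetected on the poor arrays and at least 28.4-fold, 6.36-fold and 4.49-fold higher. Klk8 differed by 2.70. Serpinb12 ranged over 8.63, 11.70 and 13.17 on the rich arrays, against 6.24 and 6.11 in the poor Car9-/- arrays and 6.31, 6.29 and 6.28 in the poor wild-type arrays. The membrane proteases Prss8, St14 and Tmprss4, used by many epithelia, did not follow the split, with differences of 0.14, 0.03 and 0.12.

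Desmosome, gap junction and surface protein genes were higher in 9 of 20 cases, with a median of 1.05 (0.91 with bounds). Lypd3, which encodes a surface protein of squamous cells, differed by 4.18, and the calmodulin-like gene Calm4, undetected on the poor arrays, was at least 10.2-fold higher. The desmosomal plakophilin Pkp1 was at least 6.04-fold higher, whereas Pkp3, Jup and Perp, which glandular epithelia also use, lay at 0.43, 0.38 and 0.08. Only 2 of 8 genes for attachment to the basement membrane were higher (median 0.32). These were Col17a1 and Dst, for the hemidesmosome proteins collagen XVII and dystonin, at 2.79 and 2.05. The laminin and integrin genes Lamb3, Lama3, Itgb4 and Itga6 lay at 0.29, 0.02, 0.34 and -0.10.

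Of 16 genes listed as squamous transcription factors or related regulators, 7 were higher (median 0.57, or 0.38 with bounds). Trp63 ranged over 8.29, 10.26 and 11.13 on the rich arrays, against 6.02 and 6.36 in Car9-/- 1 and 6 and 6.24, 6.30 and 6.20 in wild-type 4, 5 and 6, and was at least 10.4-fold higher. Trim29 and Hopx differed by 3.14 and 2.92, and Barx2, undetected on the poor arrays, was at least 5.11-fold higher. Klf5, Klf4, Grhl2 and Sox2, which are active in other epithelia too, lay at 0.11, 0.27, -0.05 and 0.32. Among epithelial cytokines and antimicrobial proteins 4 of 13 were higher, namely the neuropeptide gene Nmu at 3.13, the beta-defensin Defb14 at 1.82, and Defb4 and the interleukin 36 gene Il1f8, which were undetected on the poor arrays and at least 4.92-fold and 1.83-fold higher. S100a9, for a subunit of calprotectin, differed by 1.47 with overlap between the groups. In these lists, genes named for a difference near 0 were chosen after their values were seen. Whether use in other epithelia bears on their differences was not tested.

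**Figure D3:**
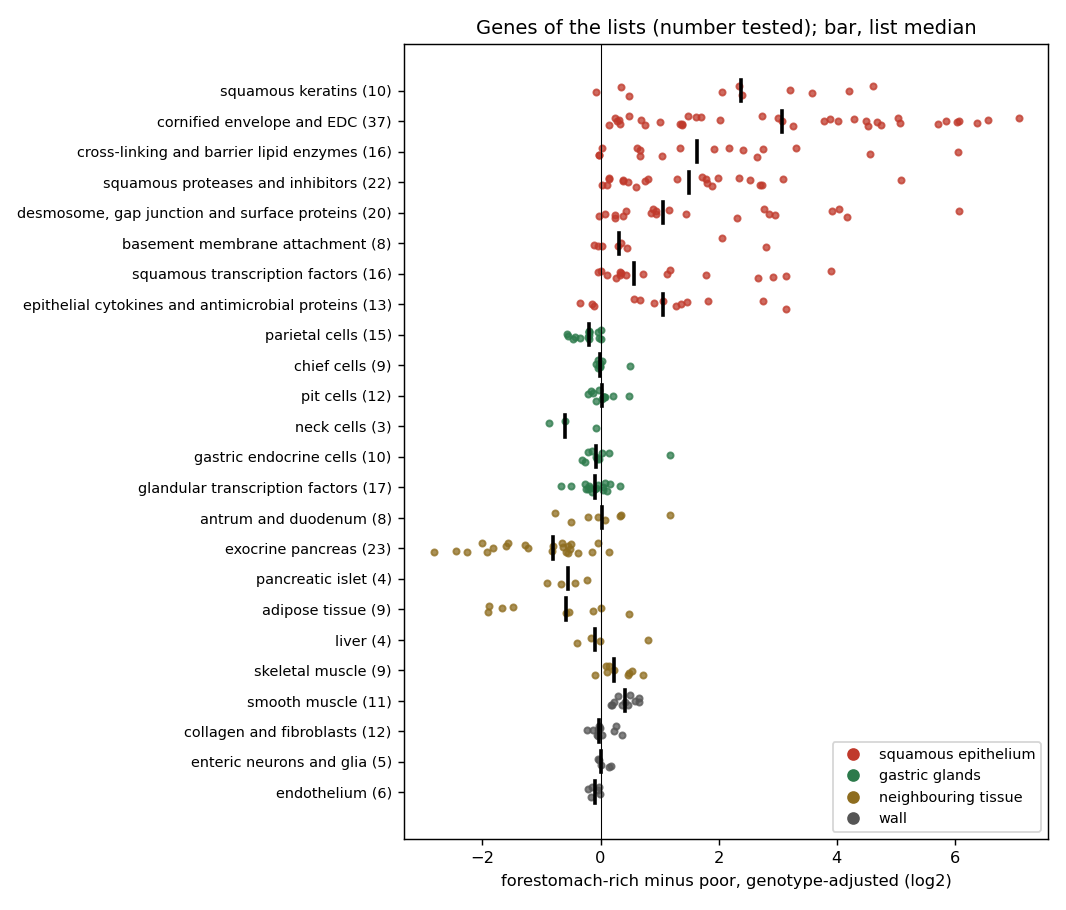
Genotype-adjusted log2 difference, forestomach-rich minus forestomach-poor (horizontal axis), of each tested gene of the squamous, gastric gland, neighbouring tissue and wall lists (rows, number of tested genes in brackets), with a black bar at the list median. The squamous lists lie to the right, up to 7.08, while the gland lists have medians between -0.60 and 0.03.

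Another 69 of the 153 genes were in none of these lists, and those named in this paragraph were chosen after their values were seen. Mt4, a metallothionein of stratified squamous epithelia, differed by 4.75, and Ltf, for the iron-binding protein lactoferrin, by 4.17. Genes known from airway secretory cells were among them. Scgb1a1 ranged over 6.75, 8.62 and 10.92 on the rich arrays, against 6.35 and 6.28 in the poor Car9-/- arrays and 6.20, 6.41 and 6.31 in the poor wild-type arrays, where it was not detected. Cyp2f2, a cytochrome P450 of the same cells, differed by 3.04, and the chitinase-like gene Chil4 by 2.44. Hoxc8 and Hoxc6, of the homeobox genes that pattern the body axis, were at least 9.27-fold and 2.89-fold higher by their brightest probes. A second probe of each gene differed by -0.015 (Hoxc8) and -0.0047 (Hoxc6). Otop2 and Otop3, of the otopetrin proton channel family, were at least 2.66-fold and 3.04-fold higher, and Car12, a membrane carbonic anhydrase, differed by 2.86.

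Gastric gland genes did not separate the arrays by the rule. Of 66 tested genes of parietal, chief, pit, neck and endocrine cells and glandular transcription factors, 0 were higher and 0 lower, and their median difference was -0.07. Over all tested probes 0.901% were higher and 0.00482% lower, so a count of 0 among 66 genes says little by itself. The parietal list had a median of -0.20, with differences from -0.56 to 0.01 over its 15 genes. Atp4a, the catalytic subunit of the proton pump, ranged over 14.39, 14.79 and 15.16 on the rich arrays, against 14.75 and 15.31 in Car9-/- 1 and 6 and 15.36, 15.31 and 15.32 in wild-type 4, 5 and 6, and its partner Atp4b differed by 0.00. Chief cell genes had a median of -0.01, with Cblif, for intrinsic factor, at -0.04 and the pepsinogen gene Pgc closer to 0. Pit cell genes had a median of 0.03, with the mucin Muc5ac at 0.06 and Gkn1 at -0.15. The 3 neck cell genes had a median of -0.60, and Muc6 spanned 8.11 to 9.62 on the rich arrays and 8.83 to 9.91 on the poor arrays. The brightest value on this scale was 15.7, so the most abundant gland genes lay close to the top of the range.

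The antral genes Gast, for gastrin, and Nkx6-3 varied between arrays in an order of their own. Gast was 14.24 in Car9-/- 2 and 11.93 in wild-type 3 but 6.08 to 6.42 on the other 5 rich arrays, and among the poor arrays it was 9.32 in wild-type 6 and 7.36 in Car9-/- 6 but 6.08 to 6.25 on the others. Nkx6-3 was 10.33 in Car9-/- 2, 10.32 in wild-type 3, 9.33 in wild-type 6, 8.97 in Car9-/- 6 and 7.92 in wild-type 5. The arrays with high antral genes thus lay on both sides of the split.

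The 1 lower probe was for a gene of the exocrine pancreas. Exocrine pancreas genes had a median difference of -0.81, with 1 of 23 lower. That gene was Cela3b, a pancreatic elastase, which ranged over 6.11, 6.41 and 6.45 on the rich arrays, against 6.65 and 6.48 in Car9-/- 1 and 6 and 11.67, 6.48 and 11.65 in wild-type 4, 5 and 6. Ctrb1, for chymotrypsinogen, spanned 6.60 to 8.62 on the rich arrays, against 7.5 and 7.12 in the poor Car9-/- arrays and 14.99, 8.07 and 14.90 in the poor wild-type arrays. Wild-type 4 and 6 thus set the difference, and without these arrays no probe was called lower while 201 were higher. Within the Car9-/- mice the median of the pancreas list was 0.05, against -1.39 within the wild-type mice. Adipoq, for the fat cell hormone adiponectin, was highest on the same arrays, at 11.77 and 11.14 in wild-type 4 and 6, against 8.80 in wild-type 5, 6.41 and 7.85 in the poor Car9-/- arrays and 6.54 to 9.26 on the rich arrays. Acta1, for skeletal muscle actin, was high on a single array, at 10.76 in wild-type 3 against 6.34 to 7.31 on the other 6 rich arrays, and none of the 16 hair follicle and sebaceous gland genes on the array was detected often enough to be tested. Smooth muscle genes had a median difference of 0.42, with 0 of 11 called. Lists of B and plasma cells, T cells and macrophages had medians of -0.73, -0.47 and -0.37, with 0 genes called, and these medians were -0.20, -0.06 and -0.04 within the Car9-/- mice and -1.19, -0.85 and -0.70 within the wild-type mice. Such counts of 0 say little in short lists, since only 0.901% of all tested probes were higher and 0.00482% lower. The cell division list lay at 0.02. The part of these tissues in the difference of any gland or immune gene was not tested.

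For the higher probes, the forestomach-rich arrays differed among themselves far more than the poor ones did. Over the 187 higher probes, the median range was 2.37 on the rich arrays and 0.28 on the poor arrays, where 110 of them were not detected. These probes were chosen for high signal on the rich arrays, so the comparison does not hold for all genes. The lower probe, for Cela3b, had a range of 0.34 on the rich arrays and 5.20 on the poor arrays. Wild-type 2 was the highest rich array for 135 of the 187 probes, and Car9-/- 2 was the lowest for 134. The order was not the same for all genes, however. Basal genes were high in wild-type 1, where Krt14 was 13.63, Krt5 10.62 and Trp63 10.85, close to the values of 13.66, 10.87 and 11.13 in wild-type 2. Some genes of the upper layers, chosen after their values were seen, were low in wild-type 1, where Sprr3 was 8.49, Krt10 10.02 and Dmkn 9.77, against 13.46, 14.64 and 13.69 in wild-type 2. Other envelope genes were not low there, with Kprp at 12.45 and 11.50 in Car9-/- 4 and 5 and at 12.60 in wild-type 1.

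Car9-/- 2 and wild-type 3 shared the low values of some of these genes. For 83 of the 187 probes Car9-/- 2, wild-type 1 and wild-type 3 all lay below the other 4 rich arrays, and for 11 probes the gap was at least 1. The widest gap was that of Krt10, with 10.39, 10.02 and 9.76 in Car9-/- 2, wild-type 1 and wild-type 3 and 13.44 to 14.64 in the others. Hrnr, Klk5, Dmkn, Gm94, Sprr3, Lor, Slurp2, Hopx, Serpinb12 and Ephx3 followed. The highest range of any higher probe was 5.15, for Sprr2i, and the lowest was 0.82, for Mall. Car9-/- 2, wild-type 1 and wild-type 3 were grouped after their values were seen. They also had the lowest marker levels of the rich arrays, 0.69, 1.05 and 1.36, and Sprr3 helped to define that level. The order of these probes thus partly repeats the marker level. The same count over all tested probes was not worked out.

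**Figure D4:**
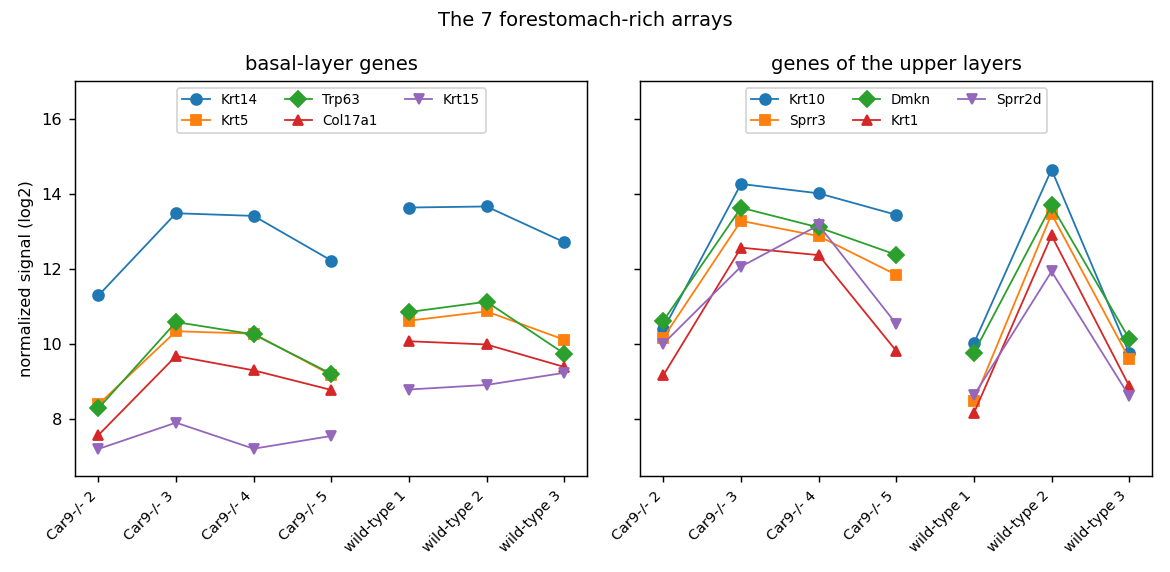
Normalized log2 signal (vertical axis) of 5 basal-layer genes and 5 genes of the upper layers on the 7 forestomach-rich arrays (horizontal axis), lines joining the arrays of a genotype. Wild-type 1 is near wild-type 2 for Krt14 (13.63 and 13.66) and far below it for Sprr3 (8.49 and 13.46).

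The genotype comes from the labels, so the effect of Car9 loss could be tested with the split as a covariate. Car9 itself was lower in Car9-/- mice on both sides of the split. It averaged 7.98 in the rich and 7.94 in the poor Car9-/- arrays, and 9.69 in the rich and 9.58 in the poor wild-type arrays, a difference of -1.69 ± 0.08 (SE, limma, adjusted p = 9.77e-07). Its probe was still detected on all Car9-/- arrays, and whether the probe lies in the deleted part is not given in the sources used here. With the covariate, 2276 probes (11.0%) differed between genotypes at an adjusted p under 0.05, of which 1115 were higher and 1161 lower in Car9-/- mice. Without it 2197 probes (10.6%) differed, and 1999 were called both ways. The count depended on single arrays, and was 748 without Car9-/- 1, 1413 without Car9-/- 4, 3829 without Car9-/- 5, 1128 without wild-type 1, 1165 without wild-type 2 and 1500 without wild-type 4. Under median scaling, which moved the median genotype difference of all probes to 0.11, 3999 probes were called, 88.8% of them higher in Car9-/- mice against 49.0% in the quantile-normalized data.

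Of the 187 higher probes 1, for Clip4, was called by genotype (-0.61, limma, adjusted p = 0.0245). The rule that no rich array overlap a poor array of either genotype itself leaves out probes with a large genotype difference, so nothing is read from this count. Krt14 and Sprr3 helped to define the covariate, and their differences between Car9-/- and wild-type mice, -0.40 ± 0.36 and 0.89 ± 0.77 (SE), are given with no test.

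Of the 142 tested genes of the squamous lists, 7 were higher and 1 was lower in Car9-/- mice, shares no larger than the 5.37% and 5.59% of all probes. None of the 8 was among the genes called higher on the rich arrays. The rule against overlap leaves out probes with a large genotype difference, so nothing is read from this either. Sprr1a, a small proline-rich envelope protein that many stressed epithelia also make, was 10.55, 11.76, 11.64 and 10.29 in the rich Car9-/- arrays 2, 3, 4 and 5, against 8.70, 11.20 and 9.74 in the rich wild-type arrays 1, 2 and 3. It was 9.85 and 10.30 in the poor Car9-/- arrays 1 and 6, against 7.59, 8.48 and 8.36 in the poor wild-type arrays 4, 5 and 6. The poor Car9-/- values thus overlapped the rich wild-type values. The difference was 1.49 ± 0.41 (SE, limma, adjusted p = 0.0370), and without the covariate it was 1.72 with an adjusted p of 0.0624 in limma. Over 20 alternative settings its adjusted p ranged over 0.0164 to 0.121, and 12 of them left it above the threshold. Ly6d, a surface protein of squamous and other epithelia, was higher by 1.27 ± 0.34 (SE, limma, adjusted p = 0.0336), a call lost under 11 of the 20 alternatives. The other genes that were higher in Car9-/- mice were Il1b by 0.84, Klf5 by 0.62, Itga6 by 0.47, Tmprss4 by 0.47 and Fermt1 by 0.35, and Col7a1, for the collagen of anchoring fibrils, was lower (-1.13 ± 0.24, SE, limma, adjusted p = 0.0151). Of the 20 alternatives, 14 ended the call of Tmprss4, 6 that of Fermt1, 5 that of Il1b, 2 that of Col7a1 and 1 each those of Klf5 and Itga6.

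Ivl, Nccrp1 and Gsdmc2 showed the same kind of overlap as Sprr1a between the poor Car9-/- and the rich wild-type arrays, the last 2 chosen after their values were seen. The value of Nccrp1 averaged 10.27 in the rich and 9.06 in the poor Car9-/- arrays, against 9.56 in the rich and 6.32 in the poor wild-type arrays. It was detected on both poor Car9-/- arrays and on none of the 3 poor wild-type arrays. Its genotype difference was 1.54 ± 0.41 (SE, limma, adjusted p = 0.0317), a call lost under 11 of the 20 alternatives, whose adjusted p ranged over 0.0166 to 0.112 and was 0.112 without the covariate. Gsdmc2, a gasdermin, averaged 9.38 in the rich and 8.30 in the poor Car9-/- arrays, against 8.11 in the rich and 6.89 in the poor wild-type arrays (1.33 ± 0.20, SE, limma, adjusted p = 0.00524). Ivl, which helped to define the covariate, differed by 1.35 ± 0.49 (SE), given with no test. A second, dimmer Ivl probe averaged 6.60 in the poor Car9-/- and 6.09 in the poor wild-type arrays, with a genotype difference of 0.58 ± 0.35 (SE). In all, 7 probes had a difference of at least 1 between the rich and the poor arrays and both poor Car9-/- arrays at least 1 above every poor wild-type array. These were probes for Nccrp1, Tprg, Ivl, Bpifb1, Sprr1a, Gsdmc2 and Sftpd, and none of them was among the 187. Such a step makes overlap with the rich arrays more likely, so nothing is read from this absence. The poor wild-type arrays had mean raw signals of 389 to 399, against 528 and 479 in Car9-/- 1 and 6. On the poor side, genotype thus cannot be told apart from array brightness or a batch for these probes. Over all tested probes 17 (0.0819%) showed such a step in the poor arrays upwards and 13 (0.0626%) downwards. Both poor Car9-/- arrays lay above the 3 poor wild-type arrays for 17.6% of the 187 higher probes and for 20.5% of all tested probes.

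**Figure D5:**
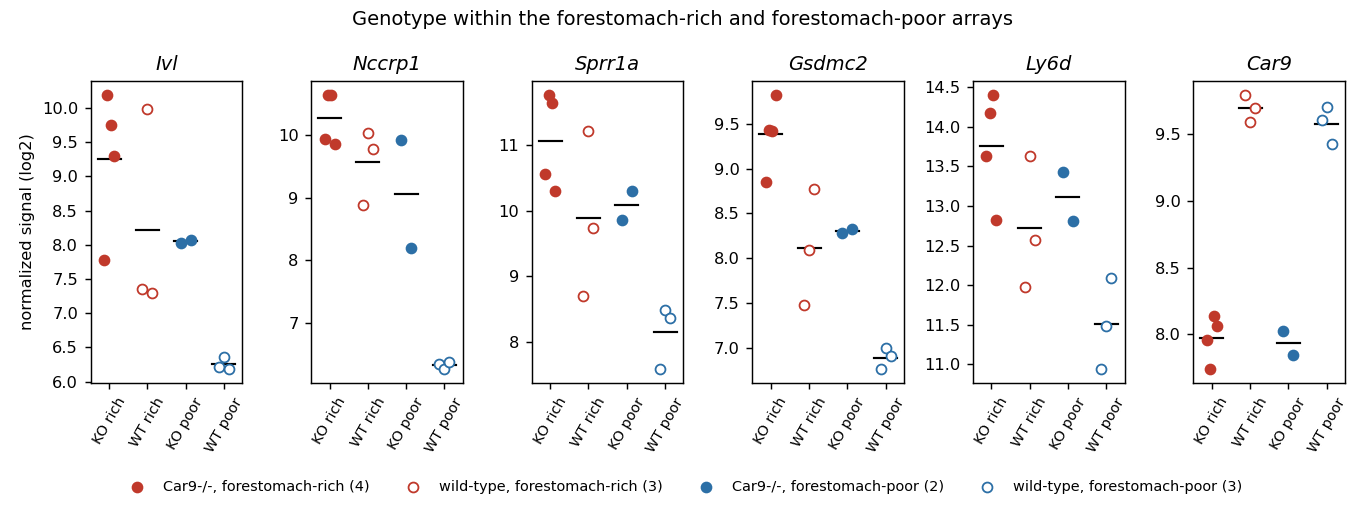
Normalized log2 signal (vertical axis, its range set for each gene) of 5 squamous-type genes and Car9, 1 point per array with a line at the mean, for Car9-/- (KO) and wild-type (WT) arrays on the forestomach-rich and forestomach-poor sides. By its brightest probe, Ivl is 8.05 on average in the poor Car9-/- arrays and 6.25 in the poor wild-type arrays, and Car9 is lower in Car9-/- mice on both sides.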

How the data were processed

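Stomach RNA of 6 Car9-/- and 6 wild-type mice was measured on Illumina Sentrix Mouse-6 arrays, 1 array per mouse. The authors deposited probe intensity values on a linear scale, exported from BeadStudio with neither normalization nor background subtraction, and a detection p-value for each probe and array. They also deposited log2 values, quantile-normalized in Chipster v1.3.0, which were used here for the split. Groups other than the split came from the labels. For everything else, log2 intensities were quantile-normalized again in limma 3.58.1 (R 4.3.3) and kept for probes that 3 or more arrays had detected at p under 0.01, leaving 20751 of 46643 probes, 16630 of them with a gene name. The platform annotation gave 1 symbol for 32794 probes, several for 55 and none for 13794, and 28 probes were named from the study's gene list.

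Differences between forestomach-rich and forestomach-poor arrays are coefficients of a limma fit with split and genotype. Genotype was tested in the same fit with eBayes and Benjamini-Hochberg adjustment over all tested probes at 0.05. Each gene of a list was read from its probe with the highest mean. The genes named are the 7 markers, Car9, the 12 with the largest difference in each direction, up to 4 of each list with the largest difference and the first 2 of each cell type list. The text says where any other gene was picked on its values. The members, lists and tests were chosen with earlier results of these data known. The scripts were tested on simulated data. Among simulated probes, 31 of 65 with a split difference of 1 and 75 of 76 with a difference of 2 were called, as was 1 of 20551 unchanged probes. The simulated probes were independent and their split was fixed beforehand, whereas the split of the data came from the same arrays. The simulation thus gives no rate of false calls for the data. Alternatives were other scalings, filters, thresholds and covariates, and leaving out single arrays. Promoters came from RefSeq (GRCm38.p6). Replicates are different mice, and their number limits the precision.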

Additional observations from a re-analysis of the deposited data

Results flagged for a closer look

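Among 104 values tested, 4 had a single array far from the others of its group, and chance alone gives about 1 in 20. The mean centred level of the skeletal muscle list was 1.15 in wild-type 3, against -0.16 to 0.10 on the other forestomach-rich arrays. The squamous keratin list was at -1.43 in Car9-/- 1, against -1.34 to -1.31 on the other forestomach-poor arrays. The pancreatic islet list was at 3.41 in wild-type 6, against -0.49 to -0.29 on the other forestomach-poor arrays. Krt4 was 6.67 in wild-type 5, against 6.55 to 6.57 on the other forestomach-poor arrays, all of these values lying near the detection limit.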

How the results depend on the processing

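The same 7 arrays were forestomach-rich under all 12 alternative settings of the split. The 187 higher probes numbered 43 when detection on all 12 arrays was required, and 16 squamous genes were then higher, since most were undetected on the poor arrays. The lower probes numbered 0 under that filter, 0 when the fit held the level of the exocrine pancreas list and 0 without wild-type 4 and 6 together, while 2 were lower under median scaling and 9 at a log2 difference of 0.5. Leaving out single arrays gave 173 to 207 higher and 1 to 10 lower probes, with 10 lower without Car9-/- 1, 9 without Car9-/- 4, 3 without Car9-/- 2 and 2 without Car9-/- 3. The median of the exocrine pancreas list turned to 0.015 with its own level in the fit, which by construction removes it. The number of genotype calls was 3999 under median scaling and 748 to 3829 when single arrays were left out, and the cause was not tested. Among squamous-type genes called by genotype, Sprr1a lost its call under 12 of 20 alternatives, Ly6d and Nccrp1 under 11 and Tmprss4 under 14, while Car9 kept its call under all 20. Probes near background limit what can be said of the forestomach-poor arrays.

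Same-numbered mice of the 2 genotypes did not deviate together, with correlations of -0.37, -0.16, 0.06, -0.35, -0.33 and 0.50, so the numbers were not taken as pairs. With the replicate number as a block, 177 probes were higher, 1 was lower and 60 were called by genotype.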

Other observations

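Smooth muscle genes, which had a median difference of 0.42 between forestomach-rich and forestomach-poor arrays, were called by genotype in 8 of 11 cases with the split as a covariate, all lower in Car9-/- mice, beside 5.59% of all tested probes, and in 1 of 11 without it. Of the 11 cell division genes, 7 were higher in Car9-/- mice both with and without the covariate, beside 5.37% of all tested probes with it. Bpifb1 and Sftpd, secreted proteins best known from airway and lung, were higher in Car9-/- mice by 2.31 (limma, adjusted p = 0.0106) and 1.87 (limma, adjusted p = 0.0076) with the covariate, and were chosen after their values were seen.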
